A study of Canis lupus familiaris with 6 samples.

Results

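Interleukins are secreted proteins through which blood, epithelial and connective tissue cells signal to each other, and interleukin receptors are the membrane proteins that receive them. On the Agilent canine 4x44K array, 103 probes of 68 genes carry a name that starts with IL and a digit, of 43603 probes that are not controls. Certain names of the lambda interferon group and its receptor chains were left out by rule. By role the genes are 35 ligands, 29 receptor chains and 4 antagonists, binding proteins or enzymes, and 23 genes have more than 1 probe, with up to 7 for IL2. A RefSeq table of the dog held 67 of these genes, IL8 under the symbol CXCL8, and did not hold IL1F8.

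RNA came from 3 canine mammary tumor lines. P114 derives from an anaplastic cancer, CMT-U27 from a simple carcinoma, and CMT-U309 from a spindle cell tumor. Each line was grown alone, here monoculture, or as co-culture with myeloid-derived suppressor cells (MDSCs), immature myeloid cells sorted from the blood of healthy dogs and kept apart from the tumor cells in a transwell insert. Its length is 48 h according to the methods, while the labels state a minimum of 72 h. The 2 RNAs of a line were labelled with different dyes and hybridized together on 2 arrays, with co-culture RNA in Cy5 (red) on array 1 and in Cy3 (green) on array 2. Both arrays of a line carry the same RNA pair and were counted as 1 replicate, so n is 3 lines, and p-values measure the spread between these samples. Each line lay on a slide and scan of its own, so line and slide cannot be told apart.

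Interleukin-1 family members, among them IL18, are made early in inflammation and are held in check by the receptor antagonist IL1RN and the binding protein IL18BP. The gamma-chain family (IL2, IL4, IL7 and relatives) drives lymphocyte growth, the interleukin-6 and interleukin-12 family signals through JAK kinases and STAT factors, and the interleukin-17 family acts on epithelial cells through receptors that contain IL17RA. IL8 is a chemokine that attracts neutrophils and is made by many tumor cells.

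The channels differed in signal over background. The scanner software flags a spot as well above background from its signal and the spread of the background. Per channel 25.2% to 59.2% of interleukin probes had this flag, against 53% to 81% of all probes. The log2 ratios of the 2 dye-swapped arrays of a line, both turned to co-culture over monoculture by the dyes in the labels, correlated over all probes at -0.40, 0.27 and -0.05 for P114, CMT-U27 and CMT-U309. Over probes well above background in all 4 channels of a line the correlation was -0.12, 0.42 and 0.22 in the same order. Over the 34, 25 and 31 interleukin probes of that kind it was 0.12, 0.43 and 0.57, and 61.8%, 64% and 67.7% of them had the same sign on both arrays. P114 was the lowest in each set. Counts of called members and the ratios of IL2, IL7, IL17RA, IL17RE and IL18 are also given without it. Among 15 myeloid marker genes with a probe, CD68, ITGB2 and S100A8 were above background in all 12 channels and ITGAM, LYZ and SPI1 in 0. PTPRC, the common leukocyte antigen, was in 3, all in CMT-U309. The summed epithelial marker signal, over the 6 of 10 listed genes with a probe, was 107703 to 126589 in the CMT-U27 channels, 4178 to 5620 in P114 and 4493 to 7708 in CMT-U309. Most of the CMT-U27 sum was KRT19, at 50377 to 80139, and EPCAM, at 36678 to 54222. KRT14 went the other way, at 1604 to 2966 in CMT-U27, 2900 to 4436 in P114 and 4205 to 7455 in CMT-U309. The mesenchymal sum was 7524 to 10772 in CMT-U27 and 272401 to 532925 in the other lines.

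The probes on which the results turn are 60-base oligonucleotides, given here with their positions on the canFam2 build as the files state them. For IL18 and IL7 1 probe of the gene was above background in every channel and the other in none, so both are shown. The IL18 probes lie at chr5:24004289-24004348 (+ strand) and chr5:23999704-23999763 (+ strand), the IL7 probes at chr29:29383404-29383463 (- strand) and chr29:29421393-29421452 (- strand).

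IL18 probe A_11_P0000019887: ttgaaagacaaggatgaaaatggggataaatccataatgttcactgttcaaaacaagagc
IL18 probe A_11_P053551: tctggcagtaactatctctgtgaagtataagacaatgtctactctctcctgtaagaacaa
IL7 probe A_11_P051286: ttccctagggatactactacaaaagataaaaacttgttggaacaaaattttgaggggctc
IL7 probe A_11_P132986: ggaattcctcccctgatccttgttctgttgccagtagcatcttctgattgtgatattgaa

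Of the 7 IL2 probes the following 2 overlap, and capitals mark the 43 bases they share. They span chr19:20762408-20764744 (+ strand) and chr19:20762391-20764727 (+ strand), and each position range is longer than the probe.

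IL2 probe A_11_P053566: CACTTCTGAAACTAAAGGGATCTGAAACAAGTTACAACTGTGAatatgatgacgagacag
IL2 probe A_11_P054831: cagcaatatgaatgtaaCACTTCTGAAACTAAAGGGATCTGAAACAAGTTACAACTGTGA

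Receptor probes are shown for IL17RE, whose mean ratio was the lowest among the members, for IL17RA, whose probes were higher in CMT-U27 and CMT-U309 co-culture, and for IL13RA2, which differed most between lines among the receptors. They lie at chr20:11360550-11360693 (- strand) for IL17RE, chr27:47842414-47842473 (+ strand) and chr27:47843309-47843368 (+ strand) for IL17RA, and chrX:90812439-90813278 (- strand), chrX:90830817-90830876 (- strand) and chrX:90834767-90834826 (- strand) for IL13RA2.

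IL17RE probe A_11_P075106: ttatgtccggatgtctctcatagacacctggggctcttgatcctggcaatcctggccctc
IL17RA probe A_11_P0000030482: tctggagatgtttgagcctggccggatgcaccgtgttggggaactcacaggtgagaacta
IL17RA probe A_11_P066606: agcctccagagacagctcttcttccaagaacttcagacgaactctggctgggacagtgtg
IL13RA2 probe A_11_P051016: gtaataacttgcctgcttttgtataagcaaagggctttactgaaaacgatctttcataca
IL13RA2 probe A_11_P148078: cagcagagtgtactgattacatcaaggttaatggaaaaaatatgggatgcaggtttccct
IL13RA2 probe A_11_P184983: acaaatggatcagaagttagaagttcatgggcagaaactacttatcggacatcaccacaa

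IL8 had the largest fold change between lines among members measured in every channel, and 2 of its 4 probes, at chr13:65374347-65374406 (+ strand) and chr13:65374465-65374803 (+ strand), are shown.

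IL8 probe A_11_P053586: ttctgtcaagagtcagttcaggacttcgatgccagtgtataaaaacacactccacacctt
IL8 probe A_11_P054906: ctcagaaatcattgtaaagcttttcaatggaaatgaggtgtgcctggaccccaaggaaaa

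Interleukin transcripts were less often measured in these tumor lines than transcripts in general. In P114, 34 of the 103 probes (33%) were well above background in all 4 channels and 52 (50.5%) in none, against 54.1% and 28.4% of all probes. In CMT-U27 the counts were 25 (24.3%) and 54 (52.4%), against 56.3% and 22% of all probes. In CMT-U309 they were 31 (30.1%) and 40 (38.8%), against 52.7% and 17.5%. Over all 12 channels, 23 probes (22.3%) of 16 genes were above background in every channel and 34 (33%) in none, against 47.6% and 14.3% of all probes. These shares carry no test. In bulk RNA, fewer cells that express a gene and less RNA per cell cannot be told apart.

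The ligands measured in every channel were IL4, IL7, IL8, IL10, IL11, IL17C, IL18, IL25, IL29L and IL34. The receptor chains were IL4R, IL12RB2, IL17RA and IL27RA, and the remaining genes were the binding protein IL18BP and the amino acid oxidase IL4I1. By family, 5 of the 11 interleukin-17 probes and all 4 IL8 probes were above background in every channel. In the interleukin-1 family 3 of 19 were, in the gamma-chain family 4 of 34, in the interleukin-6 and interleukin-12 family 4 of 15, in the interleukin-10 family 2 of 12, and for IL3, IL5 and IL5RA 0 of 5. For 13 genes no probe was above background in any channel. These were the ligands IL13, IL1F8, IL20, IL21, IL26 and IL33, the receptor chains IL18R1, IL1RAPL1, IL20RA, IL21R, IL5RA and IL6ST, and the soluble IL22 receptor IL22RA2. IL6ST, the shared signal chain gp130 of the interleukin-6 family, has only 1 probe here, which the files do not place on the genome.

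**Figure D1:**
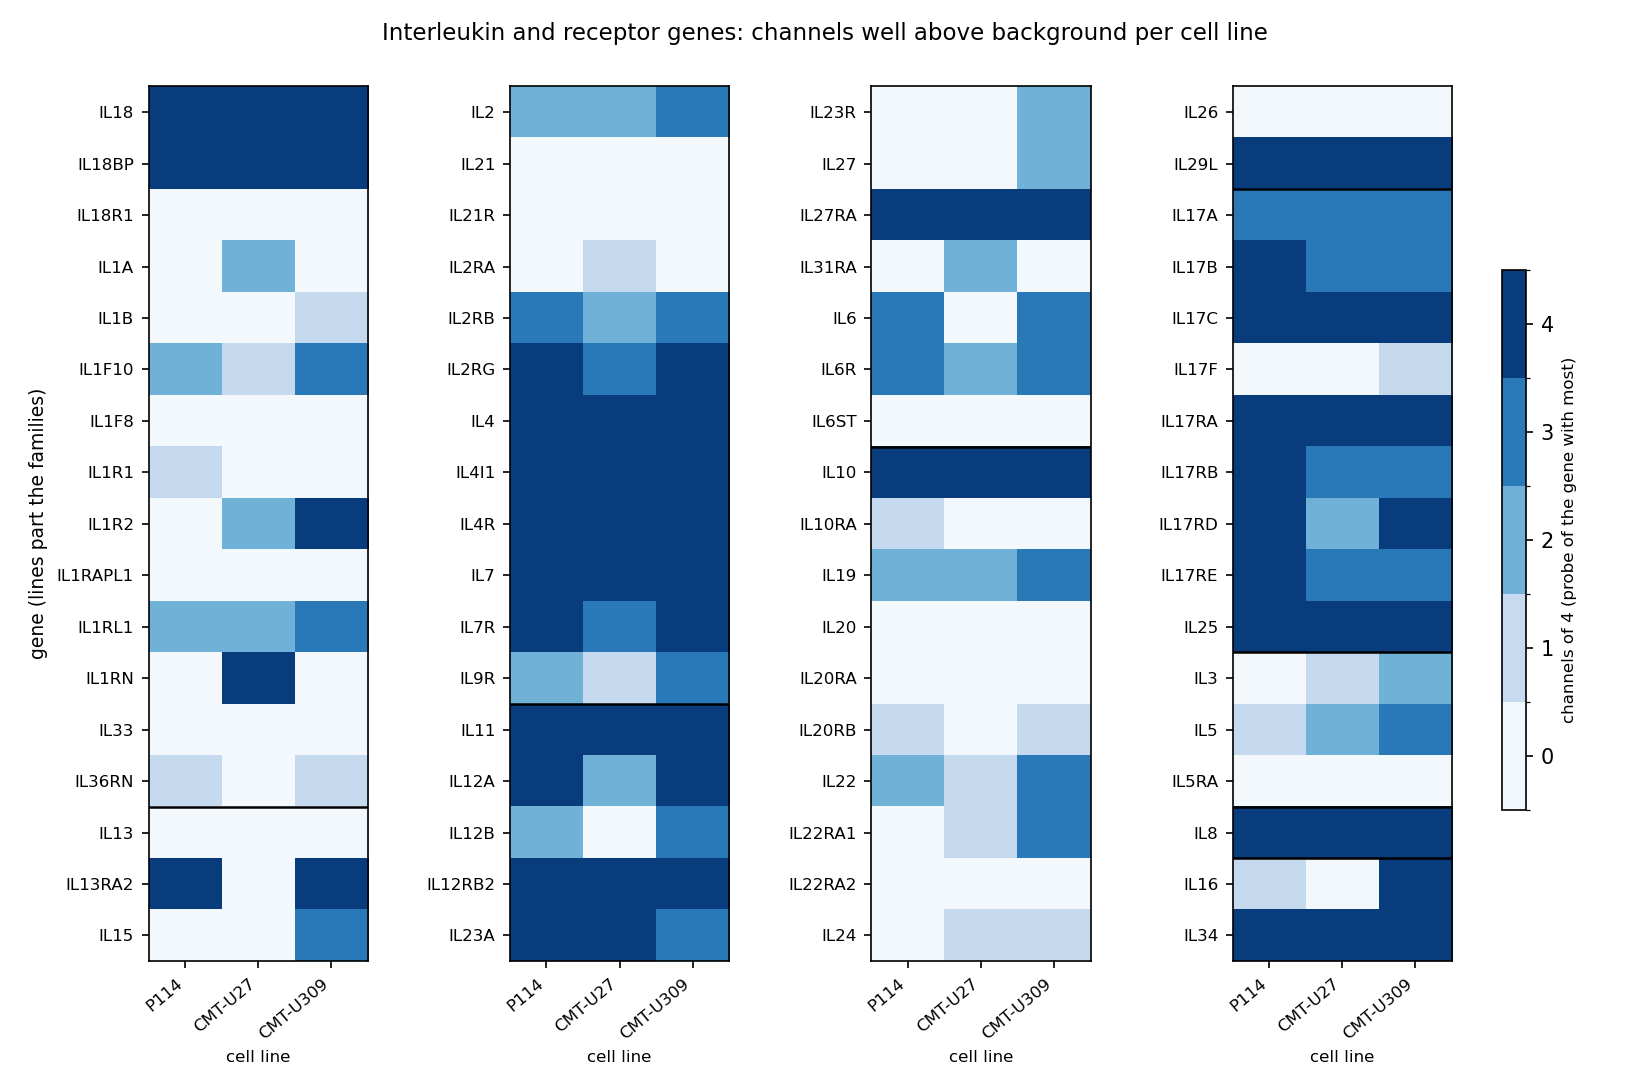
Number of channels, of 4 per cell line, in which each of the 68 genes was well above background, taking for each gene the probe with most such channels. Rows are genes grouped by family, columns are the 3 lines, and darker blue stands for more channels. IL1RN was measured in CMT-U27 alone, IL13RA2 in P114 and CMT-U309, and 13 genes are at 0 in every line.

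Probes of 1 gene often did not share a detection state. Of the 23 genes with more than 1 probe, IL12RB2, IL18, IL4 and IL7 had a probe above background in 12 channels and another in 0. In IL17RA, IL18BP, IL27RA and IL8 every probe was measured in 12 channels, and in IL13, IL21 and IL33 none in any. The IL4 probe measured in all 12 channels, A_11_P000001132, had scaled signals of 58780 to 142301 and lies at chr11:23978037-23978096, 5515 bases before the nearest of the other 3 IL4 probes, which span chr11:23983612-23986364 on the same strand. Those 3 were above background in 0, 0 and 1 channels. The first probe is listed under IL4 by the files, and whether it measures the IL4 transcript was not tested. IL4, a ligand of T helper cells, therefore rests on a probe that the others do not follow. The G and C content of the members also differed with detection, with a median of 53.3% in the 23 probes measured in every channel and 38.3% in the 34 measured in none, against 43.3% and 41.7% among all such probes. Its part in the detection was not tested.

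Levels were compared between lines on the processed signal after every channel was scaled to a common median, in arbitrary units that compare within a probe but not between probes. The fit used 6 RNA samples, co-culture and monoculture of each line. A call needed a Benjamini-Hochberg adjusted p under 0.05 over 40699 probes in limma and a fold change over 2. No line has a repeat culture here, so the p-values between lines do not measure the spread between cultures of a line. They rest on the spread of its co-culture and monoculture samples. Of the 89 members that passed the filter on low signal, 36 (40.4%) were called in at least 1 pair of lines, and 39.4% of all probes were. P114 was higher than CMT-U27 for 18 members (11.6% of all probes) and lower for 5 (12.6%). P114 was higher than CMT-U309 for 8 (7.69%) and lower for 7 (6.84%), and CMT-U27 was higher than CMT-U309 for 7 (15.7%) and lower for 25 (13.3%). The share called in either direction was 25.8%, 16.9% and 36% of members in these pairs, and 24.2%, 14.5% and 28.9% of all probes. The count for P114 against CMT-U309 was 26 without the P114 co-culture sample.

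IL8, the neutrophil attractant, was high in P114 and CMT-U309 and low in CMT-U27. For probe A_11_P053416 the co-culture channels of arrays 1 and 2 gave 7197 and 8047 in P114, 135 and 166 in CMT-U27, and 5657 and 5090 in CMT-U309. The monoculture channels gave 7808 and 7644 in P114, 84.6 and 115 in CMT-U27, and 6117 and 6400 in CMT-U309. All channels of CMT-U27 lay below every channel of the other lines, and the same held for the other 3 probes. The fold change of P114 over CMT-U27 was 63.1 for this probe (limma adjusted p = 7.49e-09) and 33.9, 25.4 and 22.9 for the others. CMT-U309 exceeded CMT-U27 by 47.7-fold (limma adjusted p = 1e-08) and by 21.1, 24.2 and 17.3-fold. P114 and CMT-U309 were not called different for any IL8 probe.

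IL13RA2, a decoy receptor that binds IL13, was measured in P114 and CMT-U309 and in no channel of CMT-U27. Probe A_11_P051016 gave 515 to 698 in the 4 channels of P114, 49.5 to 81 in CMT-U309 and 3.57 to 6.34 in CMT-U27. The 3 lines did not overlap for this probe. Where a line has no channel above background only a bound can be given. It is the mean of the brighter line over the lowest measurable signal after loess and Aquantile normalization. The p beside a bound, here and below, does not test the bound. It comes from the fit on scaled signals, which takes in the signals below background. By that bound P114 was at least 38.6-fold, 27.2-fold and 18.6-fold higher than CMT-U27 for the 3 probes (limma adjusted p = 3.34e-08, 1.1e-06 and 7.17e-07). CMT-U309 was at least 4.21-fold and 2.82-fold higher than CMT-U27 for the first and second probe (limma adjusted p = 2.48e-06 and 0.000106), and the third was above background in 3 of 4 CMT-U309 channels. P114 exceeded CMT-U309 by 9.06, 9.31 and 9.81-fold (limma adjusted p = 1.78e-05, 0.000341 and 8.25e-05).

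Other receptors and ligands were highest in CMT-U309. IL7R, the receptor chain for IL7, had signals of 621 to 842 in CMT-U309, 40.7 to 53.5 in P114 and 30.2 to 38 in CMT-U27, where 3 of 4 channels were above background. CMT-U309 exceeded P114 by 14.8-fold (limma adjusted p = 6.46e-07) and CMT-U27 by 21.1-fold (limma adjusted p = 1.17e-07). IL16, a chemoattractant for CD4+ cells, had signals of 83.3 to 141 in CMT-U309. It was at least 6.88-fold higher there than in CMT-U27 (limma adjusted p = 5e-06), where it was in no channel above background. In P114 only the monoculture channel of array 2, at 24.4, was above background and the others were at 8.26 to 12.7, so no fold is given. The second probes of IL7R and IL16 were above background in 3 channels of CMT-U309 and in 0 of the other lines. IL1R2, the decoy receptor for IL1, had signals of 74.9 to 143 in CMT-U309, at least 4.85-fold above P114 (limma adjusted p = 6.99e-05). In CMT-U27 its array 2 channels, at 62.0 and 44.9, were above background and its array 1 channels, at 4.01 and 1.59, were not, so no fold is given. IL18 probe A_11_P053551 had signals of 186 to 211 in CMT-U309, 2.33-fold above P114 (limma adjusted p = 0.00153) and 3.21-fold above CMT-U27 (limma adjusted p = 8.71e-05).

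A further set was highest in CMT-U27, the line with the high KRT19 and EPCAM signal. IL1RN, the antagonist of the IL1 receptor, had signals of 145 and 176 in the co-culture channels and 63.5 and 86.8 in the monoculture channels of CMT-U27, and was above background in no channel of the other lines. It was at least 5.29-fold higher than in P114 (limma adjusted p = 5.71e-05) and at least 9.64-fold higher than in CMT-U309 (limma adjusted p = 6.59e-05). IL4I1, an enzyme that oxidizes phenylalanine, had signals of 748 to 943 in CMT-U27, 11.9-fold above P114 (limma adjusted p = 2.34e-07) and 6.02-fold above CMT-U309 (limma adjusted p = 2.13e-06). IL34, a ligand of the CSF1 receptor, had signals of 3900 to 7278 in CMT-U27, 1991 to 2592 in P114 and 635 to 806 in CMT-U309, with no overlap between lines. CMT-U27 exceeded P114 by 2.3-fold (limma adjusted p = 0.000165) and CMT-U309 by 7.68-fold (limma adjusted p = 2.55e-07). IL11, of the interleukin-6 family, had signals of 333 to 596 in CMT-U27, 4.24-fold above P114 (limma adjusted p = 1.66e-05) and 3.94-fold above CMT-U309 (limma adjusted p = 1.98e-05). IL18BP was not of this set, since the mean signal of both its probes was highest in P114 and lowest in CMT-U309. Its probes differed in their calls. Probe A_11_P123111 was 3.29-fold higher in P114 (limma adjusted p = 0.000154) and 2.45-fold higher in CMT-U27 (limma adjusted p = 0.000438) than in CMT-U309, and probe A_11_P050071, at 1.81-fold and 1.61-fold, was not called in either pair. After normexp background correction with loess and Aquantile normalization, which adds an offset of 50 to both channels, 12 of the 36 members were called. IL8, IL13RA2 for P114 over both other lines, IL7R for CMT-U309, IL4I1 and IL11 for CMT-U27 over both, IL34 except P114 against CMT-U27, and the first IL18BP probe for P114 over CMT-U309 were among them, and IL1RN, IL1R2, IL16 and IL18 were not.

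**Figure D2:**
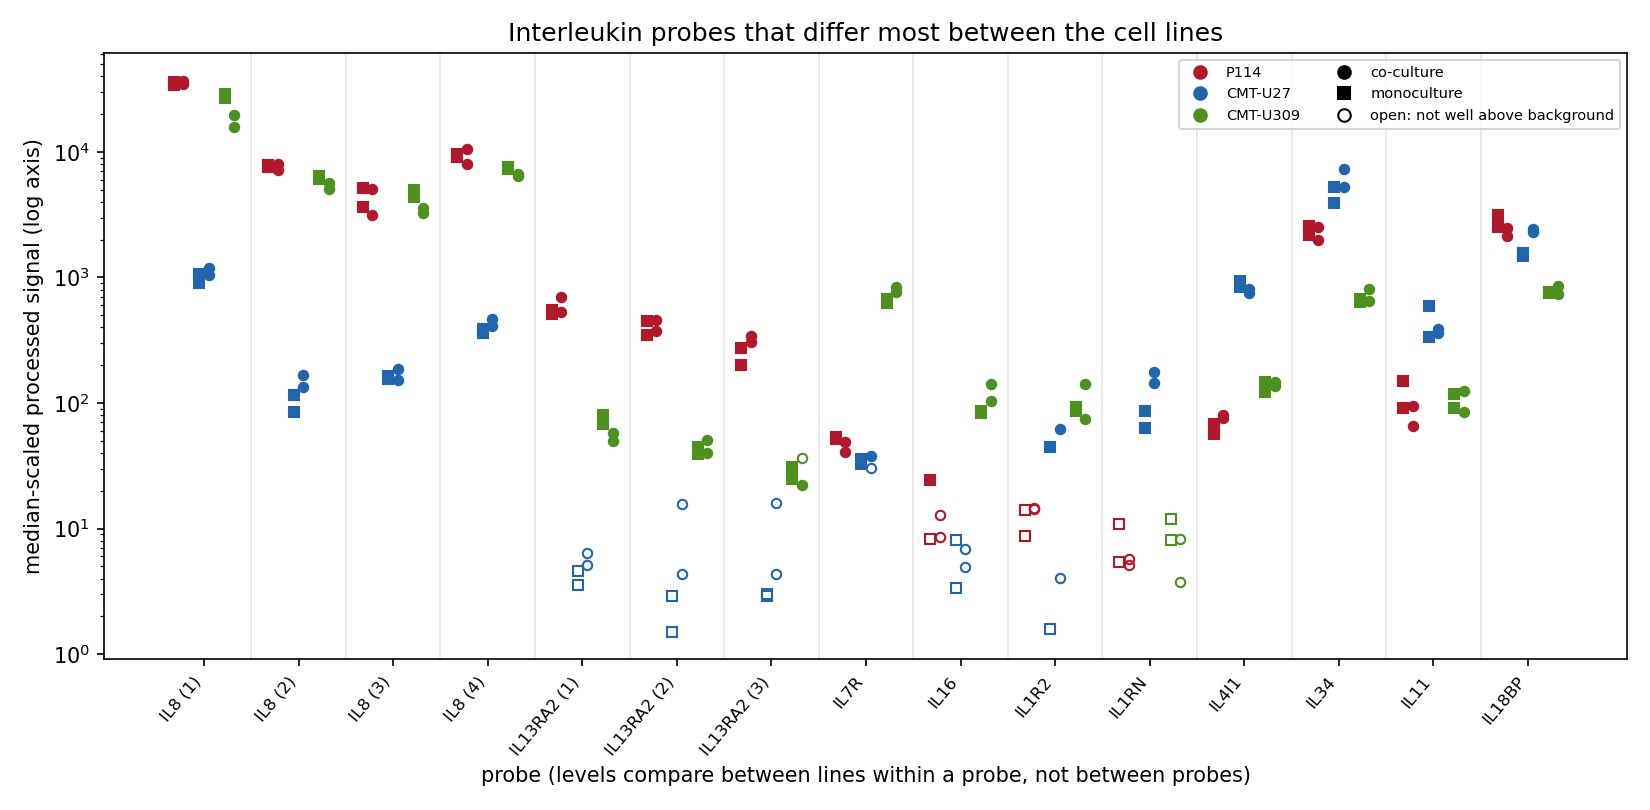
Median-scaled processed signal (log axis, arbitrary units) of 15 interleukin probes in every channel, with circles for co-culture, squares for monoculture and open symbols for channels not well above background. The 4 IL8 probes and 3 IL13RA2 probes are lowest in CMT-U27 (blue), IL7R, IL16 and IL1R2 are highest in CMT-U309 (green), and IL1RN, IL4I1 and IL11 are highest in CMT-U27.

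Co-culture over monoculture was tested as the mean log2 ratio of the 3 lines against 0 in limma, at the thresholds of the methods, p under 0.05 without adjustment together with a change of more than 2-fold. Of the 89 members tested, 3 (3.37%) were called higher and 0 lower, where 1.03% of all 40699 probes were called higher and 0.192% lower, 1.23% in either direction. After Benjamini-Hochberg adjustment in limma 0 members and 0 probes in all had a p under 0.05. The smallest adjusted p was 0.498 among members and 0.227 over all probes. An unadjusted p under 0.05 was reached by 8 members (8.99%) and by 9.95% of all probes. The median log2 ratio of the members was 0.08, against 0.01 over all probes tested. The count of called members rested on which lines and arrays entered. It was 11 without P114 (10 higher and 1 lower, where 6.57% of all probes were called), 0 without CMT-U27 (0.525%), 2 without CMT-U309 (0.779%), 18 without replicate 1 (13.5%) and 0 without replicate 2 (1.35%), with the share of all probes called in parentheses. The methods' t-test called 0 members and 0.29% of all probes.

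The 3 called probes belong to IL18, IL2 and IL7, which the study lists. Each was well above background in 0 of 12 channels, so their ratios are between signals that were not measured above background. For IL18 the study also reports real-time RT-PCR with the same trend as its array result, which was not examined here. IL18 probe A_11_P0000019887 had log2 ratios of -0.87 and 1.44 on arrays 1 and 2 of P114, 1.55 and 1.98 in CMT-U27, and 0.53 and 2.96 in CMT-U309. Its signals ran from 1.1 to 18.5. The mean was 1.26 (SE 0.47, n = 3 lines) with a limma adjusted p of 0.498, and 5 of 6 arrays were above 0. The IL18 probe measured in every channel, A_11_P053551, had ratios of -0.04 and -0.40 in P114, -0.14 and 0.51 in CMT-U27, and 0.16 and 0.13 in CMT-U309, so 3 of its 6 arrays were above 0. IL7, a growth factor of lymphocyte precursors, gave the same contrast between its probes. Probe A_11_P051286, above background in 0 channels, had ratios of -1.08 and 1.33 in P114, 0.79 and 2.16 in CMT-U27, and 0.55 and 2.46 in CMT-U309, with a mean of 1.04 (SE 0.41, limma adjusted p = 0.498). Probe A_11_P132986, measured in every channel, had ratios of 0.22 and 0.39 in P114, 0.20 and -0.36 in CMT-U27, and 0.09 and -0.47 in CMT-U309, with a mean of 0.01 (SE 0.18, limma adjusted p = 0.983).

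For IL2, the T cell growth factor, 4 of the 7 probes were tested. The called probe A_11_P053566 had ratios of -1.25 and 1.13 in P114, 1.62 and 1.52 in CMT-U27, and 0.44 and 3.03 in CMT-U309, with a mean of 1.09 (SE 0.46, limma adjusted p = 0.498). Its neighbour A_11_P054831, which holds 43 of the same bases, had ratios of -1.18 and 1.60, 1.57 and 0.45, and -0.02 and 1.5 in the same order, with a mean of 0.65 (SE 0.42, limma adjusted p = 0.566). Both were above background in 0 channels. The IL2 probe measured in most channels, A_11_P053571, was above background in 2 co-culture and 5 monoculture channels and had a mean of -0.42 (SE 0.32, limma adjusted p = 0.62). Among all members tested that were above background in no channel, 3 of 21 (14.3%) were called higher and their median log2 ratio was 0.65. Among all probes of that kind, 6.52% were called and the median was 0.54. Of the 21 members 18 lay above 0, and IL26, IL21R and 1 IL1B probe lay below it at -0.11, -0.04 and -0.07. Without P114 the called probes of IL18, IL2 and IL7 had means of 1.76, 1.66 and 1.49 over 2 lines. Their limma adjusted p was 0.0154, 0.0145 and 0.0194, where 15.7% of all probes had one under 0.05. The IL18 and IL7 probes measured in every channel had means of 0.16 and -0.13. Of the 11 members called without P114, 8 were above background in 0 channels of the 2 lines.

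IL17RE, a receptor chain of the interleukin-17 family and the other listed gene, went the opposite way and lay just inside a fold change of 2. Its log2 ratios were 0.52 and -0.69 in P114, -0.09 and -3.03 in CMT-U27, and -0.04 and -2.66 in CMT-U309. The large negative values came from array 2 of CMT-U27 and CMT-U309, where the co-culture channel was not above background, and the array 1 values of these lines were near 0. Those co-culture channels held the fewest members above background of their lines, 26 and 32, against 41 and 53 in the monoculture channels of the same arrays. Whether the channel sets the ratio was not tested. The mean was -0.999 (SE 0.30, limma adjusted p = 0.498), and -1.46 without P114 (limma adjusted p = 0.00274), which passed the thresholds.

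**Figure D3:**
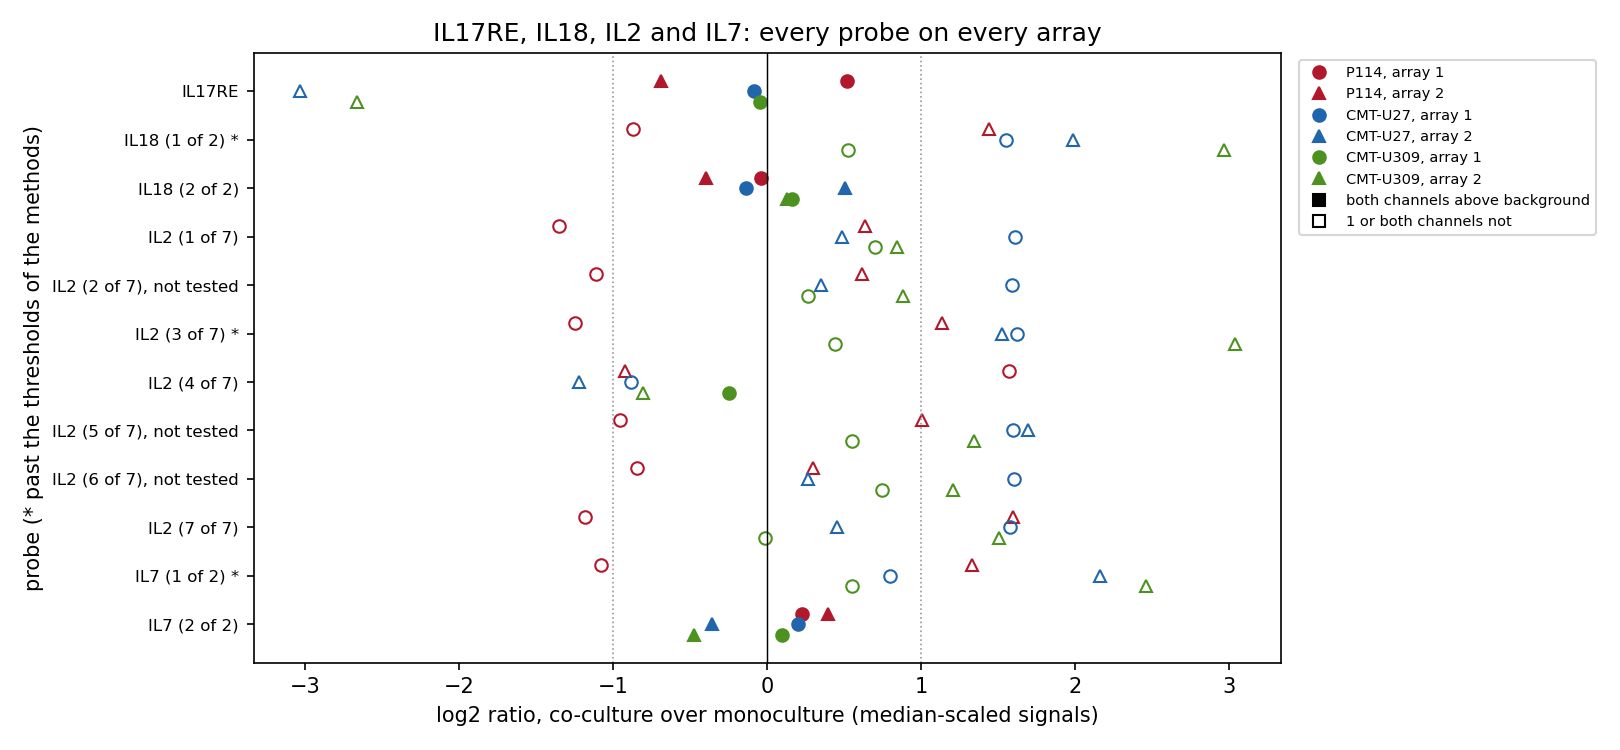
Log2 ratio of co-culture over monoculture for every probe of IL17RE, IL18, IL2 and IL7 on each of the 6 arrays. Colours are lines, circles array 1 and triangles array 2, filled symbols have both channels well above background, dotted lines mark a fold change of 2, and an asterisk marks a probe past the thresholds. The called probes of IL18, IL2 and IL7 have open symbols alone and spread over more than 2 log2 units, while the filled probes of IL18 and IL7 lie near 0.

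Among the 23 members measured in every channel no co-culture change past the thresholds was found, as for all but 0.126% of the 20602 probes of that kind. Their mean log2 ratios ran from -0.28 for IL11 to 0.45 for IL17RA. Every 95% interval lay within a fold change of 2 in either direction, the lowest bound being -0.63 and the highest 0.86. None was higher or lower on all 6 arrays. An unadjusted p under 0.05 was reached by 3 of them (13%), and by 9.76% of all such probes.

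IL17RA, the shared receptor chain for IL17A and IL25, had 2 of those 3 probes. Probe A_11_P0000030482 gave log2 ratios of 0.03 and -0.25 in P114, 0.85 and 0.64 in CMT-U27, and 0.84 and 0.60 in CMT-U309. Probe A_11_P066606 gave -0.05 and -0.17, 0.78 and 0.37, and 0.70 and 0.54 in the same order, and the third probe, A_11_P182293, gave -0.09 and -0.08, 0.56 and 0.49, and 0.17 and 0.58. All 12 values of CMT-U27 and CMT-U309 were above 0, and 5 of the 6 values of P114 were below it. The means were 0.45 (SE 0.18), 0.36 (SE 0.15) and 0.27 (SE 0.14), with limma adjusted p of 0.498, 0.498 and 0.514. Without P114 they were 0.73, 0.60 and 0.45, with limma adjusted p of 0.00365, 0.00218 and 0.0147 over 2 lines. In that setting 14 members had an adjusted p under 0.05, as had 15.7% of all probes. Of the 23 members measured in all 8 channels 5 did, all of them higher, against 19.6% of such probes, and 0 passed the thresholds of the methods, against 0.911%. The other 2 were IL18BP probe A_11_P050071 at 0.53 (limma adjusted p = 0.026) and the IL4 probe at 0.39 (limma adjusted p = 0.0242). IL25, the remaining probe, had ratios of 0.56 and -0.03 in P114, 0.76 and -0.29 in CMT-U27, and 0.68 and -0.19 in CMT-U309. It was higher wherever co-culture RNA was in Cy5 and lower wherever it was in Cy3, an order shown by 5 members (4.85%) and by 4.82% of all probes.

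IL18BP, which binds and blocks IL18, was above 0 on both CMT-U27 arrays and below 0 on both P114 arrays with each of its probes. Probe A_11_P050071 had log2 ratios of -0.45 and -0.15 in P114, 0.96 and 0.75 in CMT-U27, and 0.36 and 0.04 in CMT-U309, with a mean of 0.25 (SD 0.58 between lines). Probe A_11_P123111 had -0.04 and -0.58, 0.71 and 0.55, and 0.17 and -0.02 in the same order, with a mean of 0.13 (SD 0.47). The spread between lines was larger than the mean for both. In CMT-U309 all 4 IL8 probes were lower in co-culture on both arrays, with ratios from -0.78 to -0.11, whereas in CMT-U27 and P114 their arrays ran from -0.25 to 0.67. The 4 probes share a transcript and are not independent. Their means over the 3 lines were -0.16 to 0.12.

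**Figure D4:**
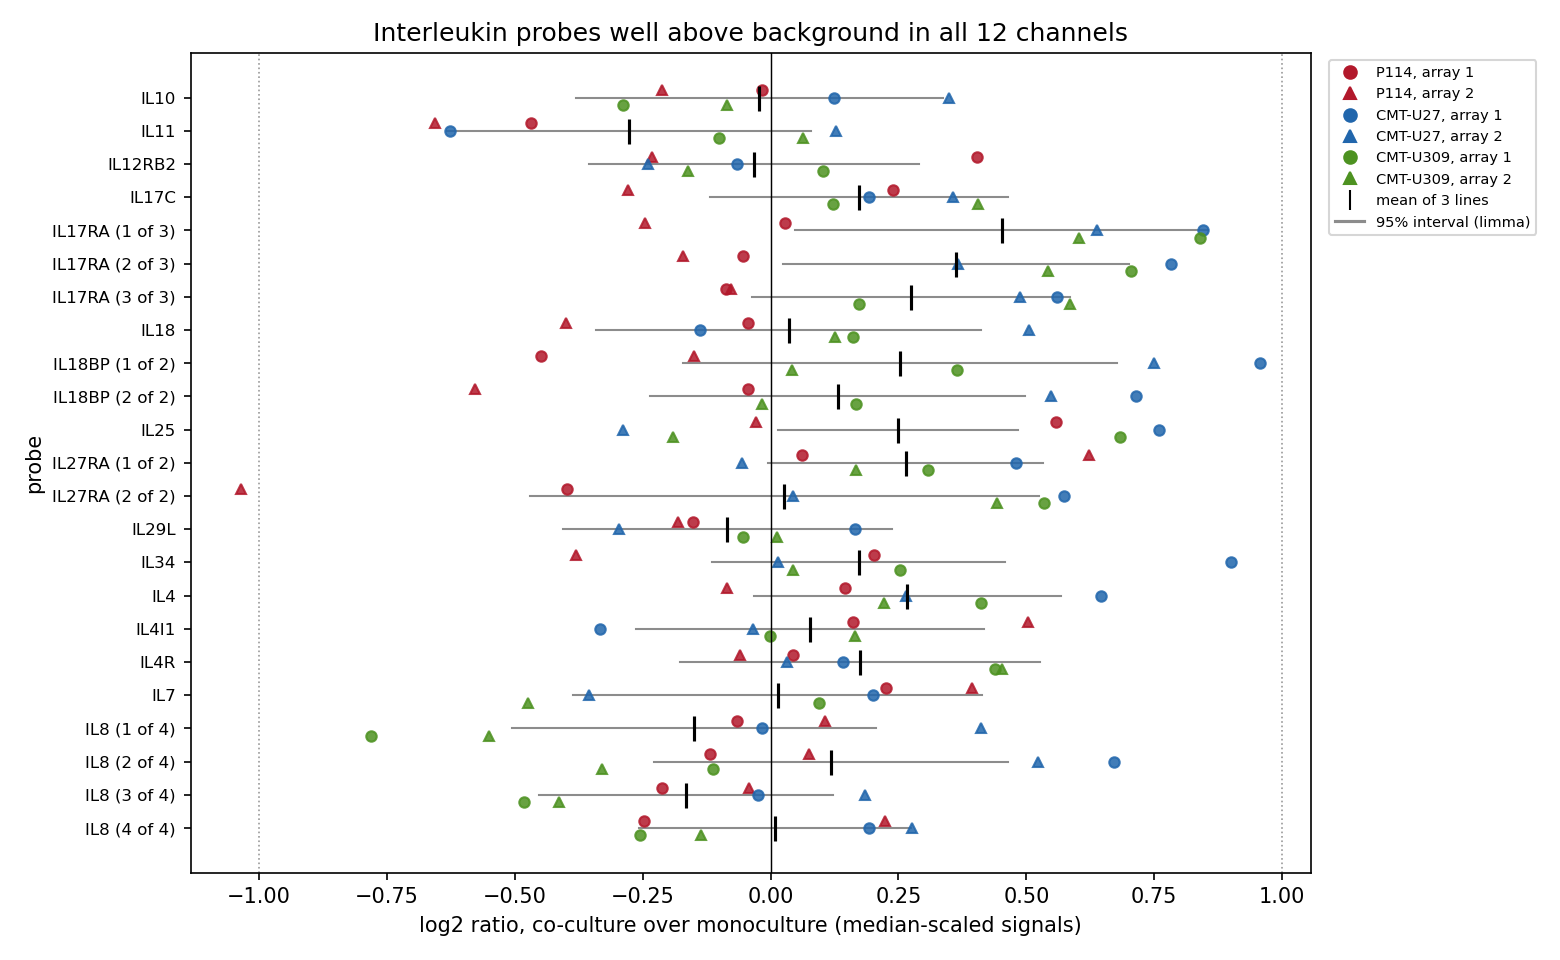
Log2 ratio of co-culture over monoculture for the 23 interleukin probes well above background in all 12 channels, on each of the 6 arrays. Colours are lines, circles array 1 and triangles array 2, the black tick is the mean of 3 lines, the grey bar its 95% interval in limma, and dotted lines mark a fold change of 2. No interval reaches a fold change of 2, and the 3 IL17RA probes have CMT-U27 and CMT-U309 values above 0 and P114 values at or below it, apart from 1 P114 value of 0.03.

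Within a line, direction was read for members above background in all 4 of its channels. In P114, 8 of 34 (23.5%) were higher in co-culture on both arrays and 13 (38.2%) lower on both, against 23.9% and 20% of all probes of that kind. In CMT-U27, 14 of 25 (56%) were higher on both and 2 (8%) lower, against 32.7% and 31.8%. Among the higher was IL1RN, above background in that line alone, with log2 ratios of 1.19 and 1.02 on arrays 1 and 2. Its mean over the 3 lines, -0.07, takes in ratios of the other lines between signals not above background. In CMT-U309, 15 of 31 (48.4%) were higher on both and 6 (19.4%) lower, against 34.4% and 22.3%. These are counts of probes, and several probes of a gene are counted apart. The 4 IL8 probes were among the 6 lower in CMT-U309, and in CMT-U27 the higher included 2 IL8 probes and both IL18BP probes. In the interleukin-17 family 4 of 5 probes in CMT-U27 and 5 of 6 in CMT-U309 were higher on both arrays. In each line 3 of these are the IL17RA probes, which measure 1 gene, and the others were IL17C and, in CMT-U309, IL17RD. The members tested, including those above background in no channel, had median log2 ratios of -0.08, 0.31 and 0.21 in P114, CMT-U27 and CMT-U309. All probes had medians of 0.00, 0.00 and 0.02. For the members measured in all 12 channels the medians were -0.08, 0.24 and 0.14, against 0.02, -0.01 and 0.04 for all such probes. A single line has no replicate, so these counts and ratios carry no test. In CMT-U27 the summed signal of the 15 myeloid markers was 13720 to 13764 in co-culture and 7908 to 8212 in monoculture. Of it 11301 and 11667 in co-culture and 6116 and 6616 in monoculture were S100A8, a calcium-binding protein of myeloid and epithelial cells. In P114 the sums were 1615 to 1960 and 1673 to 1870, and in CMT-U309 2429 to 2612 and 2228 to 2562. Its part in the ratios was not tested.

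The proteins that carry interleukin signals inside the cell, and cytokines and receptors of the pathway under other names, were read from a list of 59 genes. Of these 41 had a probe, 59 probes in all. Above background in 12 channels were 40 of the 59, and 0 were in none, against 47.6% and 14.3% of all probes. They were measured more often than the interleukins themselves. Of 58 probes tested, 0 were called higher and 1 lower, where 1.23% of all probes were called in either direction. An unadjusted p under 0.05 in limma was reached by 5 of them, and by 9.95% of all probes. None passed adjustment in limma, and the median log2 ratio was 0.03. The lower one was SOCS3, a feedback inhibitor of JAK and STAT signaling. Its ratios were 0.03 and -0.92 in P114, -0.50 and -2.31 in CMT-U27, and -0.29 and -2.10 in CMT-U309, with a mean of -1.02 (SE 0.27, limma adjusted p = 0.498). As for IL17RE the low values were those of array 2, and SOCS3 was above background in 3 co-culture and 5 monoculture channels. Without CMT-U27 or without CMT-U309 no probe of the list was called, where 0.525% and 0.779% of all probes were. Without replicate 1 there were 5, where 13.5% of all probes were called. RELA, a subunit of NF-kB, was higher in co-culture on 6 of 6 arrays with probe A_11_P0000027953, with ratios of 0.13 and 0.18 in P114, 0.65 and 0.56 in CMT-U27, and 0.31 and 0.31 in CMT-U309 and a mean of 0.36 (SE 0.13, limma adjusted p = 0.498). Its other probe, A_11_P054071, had ratios of -0.60 and -0.37 in P114 and a mean of 0.12 (SE 0.21). JAK2, a kinase bound to many interleukin receptors, had a mean of 0.41 (SE 0.17, limma adjusted p = 0.498) and was higher on 4 of 6 arrays. NFKB1, another NF-kB subunit, was higher on 1 of 6 arrays with probe A_11_P050481, with a mean of -0.37 (SE 0.15, limma adjusted p = 0.498). Its other probe had a mean of -0.08 (SE 0.15). TOLLIP had means of 0.35 (SE 0.15) and -0.16 (SE 0.28) with its probes. Like that RELA probe, SOCS1 was higher on 6 of 6 arrays, with a mean of 0.15 (SE 0.12, limma adjusted p = 0.649).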

How the data were processed

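Gene expression was measured on 6 Agilent 2-colour arrays of 3 cell lines, 2 dye-swapped arrays per line. The authors deposited Feature Extraction scanner output (version 10.10.1.1 in the file headers, 10.7.3.1 in the submitters' processing notes) with intensity values, namely spot means, local backgrounds and processed signals that are background-subtracted and dye-normalized by linear and lowess scaling, with surrogate values for low signals. The deposited flags mark spots well above background, saturated or outlying. A table of log10 ratios was deposited as well, and matched the processed signals turned to co-culture over monoculture within 4.997e-06.

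From these files the 12 channels were scaled to a common median, outlier and control spots were left out, and repeated spots were averaged. Probes with a maximal signal of 10 or less, or without a ratio on both arrays of every line, were removed. The log2 ratio was averaged over each dye-swap, and the mean of 3 lines was tested with limma 3.58.1 in R 4.3.3 (lmFit, eBayes with trend). Lines were compared on 6 RNA samples with terms for line and condition. The resampling step named in the methods was not used here. Adjustment was by Benjamini-Hochberg over 40699 probes. The fits were tested on simulated data. The number of arrays limits the precision.

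The rule for named genes took members measured in all 12 channels, measured in all 4 channels of 1 line and 0 of another, past the thresholds, among the 10 largest differences between lines, or listed by the study. The members, this rule and the gene lists were chosen with earlier results of these data known. The authors' replicate numbers mark the dye orientation, and a fit of the 6 arrays with that number as a term was an alternative, besides another background correction, filters, tests and left-out lines or arrays. Tables were made with pandas 2.3.3 and plots with matplotlib 3.10.9.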

Additional observations from a re-analysis of the deposited data

Results flagged for a closer look

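Of the 40 probes taken by the rule for named genes, 12 probes of 9 genes differed in direction between lines. In each, both arrays of 1 line were above 0 and both arrays of another below 0, with all 8 channels well above background. P114 was the lower line in 7 of these. The remaining members and all probes were not counted in this way, so no share stands beside these counts. Outside the 40, IL17RD showed the same pattern, with mean log2 ratios of 0.73 in CMT-U309 and -0.22 in P114. For the 12, each difference between the mean log2 ratios of the 2 lines is given. None of them was tested, since a line has no replicate.

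CMT-U27 lay above P114 by 1.15 for IL18BP probe A_11_P050071 (0.85 against -0.30), by 0.94 for IL18BP probe A_11_P123111 (0.63 against -0.31) and by 0.61 for IL17RA probe A_11_P182293 (0.52 against -0.08). CMT-U309 lay above P114 by 1.2 for IL27RA probe A_11_P052206 (0.49 against -0.72), by 0.74 for IL17RA probe A_11_P066606 (0.62 against -0.11), by 0.55 for IL7R (0.31 against -0.24) and by 0.37 for IL18 probe A_11_P053551 (0.14 against -0.22).

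CMT-U27 lay above CMT-U309 by 0.82 for IL8 probe A_11_P053416 (0.60 against -0.22), by 0.43 for IL8 probe A_11_P054906 (0.23 against -0.20) and by 0.42 for IL10 (0.24 against -0.19). P114 was the higher line for IL13RA2 probe A_11_P051016, by 0.66 over CMT-U309 (0.19 against -0.47), and for IL4I1, by 0.52 over CMT-U27 (0.33 against -0.18).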

How the results depend on the processing

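The 3 interleukin probes called in co-culture became 0 after normexp with loess and for probes above background in at least 6 of 12 channels. They also became 0 with a t-test of the 3 line ratios and with a t-test of the 12 channels. With 1 line left out the count ran from 0 to 11, the latter without P114, where 6.57% of all probes were called in place of 1.23%. Without replicate 1 it was 18, where 13.5% of all probes were called, and without replicate 2 it was 0, where 1.35% were. The fit of 6 arrays with the replicate block called 3 and without it 2, and the deposited log10 ratios called 2. The 1 partner probe became 0 after normexp, with the t-test of the 3 line ratios, and without CMT-U27 or CMT-U309, and 5 without replicate 1. Between lines, normexp with loess and Aquantile called 12 members in any pair in place of 36, namely 9, 6 and 8 for P114 against CMT-U27, P114 against CMT-U309 and CMT-U27 against CMT-U309, and without the P114 co-culture sample the pair P114 against CMT-U309 gave 26. Members above background in CMT-U27 were 41 by the flag for a positive and significant signal and 49 in at least 1 channel, in place of 25. In CMT-U309 they were 51 and 63, and 57 without replicate 2, in place of 31. No called value changed sign under these alternatives. The cause of these shifts was not tested, apart from the fewer arrays or probes that a setting leaves. Of the co-culture values of single probes, 545 kept their direction and side of the threshold or moved by less than the spread between lines, 20 lost a call, 8 gained one and 5 moved further, and between lines 461 kept them and 20 lost a call.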
